A study of Mus musculus with 4 samples.

Results

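Inhibitory receptors are surface proteins that dampen signalling through the T cell receptor after they bind ligands on other cells. They are induced by antigen and are also kept at high levels on chronically stimulated T cells, where the nuclear protein Tox is known from mouse CD8 T cells to hold their expression. Follicular helper and regulatory T cells carry several of them in their ordinary state, so that their presence alone does not mark a dysfunctional cell. The genes described here are 9 named genes: the CD28-family receptors Pdcd1 (PD-1), Ctla4 and Btla, the receptors Lag3, Havcr2 (TIM-3), Tigit, Cd160 and Cd200, and the regulator Tox. All 9 of 9 were found by symbol among the 33696 genes of both RNA matrices. Cd200 is better known as the ligand of the inhibitory receptor Cd200r1 and was counted here with the 8 receptor genes.

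The cells were CD4+ CD44+ GITR- T cells, a sort for antigen-experienced conventional cells, from the brain and the spleen of wild-type C57BL/6 mice on day 60 of experimental autoimmune encephalomyelitis (EAE), a demyelinating disease set off by immunization. Each tissue gave 1 RNA library and 1 T cell receptor (TCR) library by droplet sequencing from the 5′ end, and how many animals stand behind each the sources used here do not say. There were therefore no replicates and no test, and every interval below is a 95% interval that covers counting error only. After filtering, 3948 brain cells with 41136165 unique molecular identifiers (UMIs, median 9840 per cell) and 7989 spleen cells with 60422450 UMIs (median 7190) remained, of which 79.3% in brain and 84.3% in spleen had a paired TCR. The libraries shared 31 barcodes. T cell genes stood at similar levels, with Cd3e at 738 CPM (UMIs scaled to a common library total) in brain cells against 741 CPM in spleen cells, and Cd4 at 338 CPM in brain cells against 341 CPM in spleen cells. Tnfrsf18, the gene of GITR, was present at 169 CPM in brain cells, against 142 CPM in spleen cells, despite the gate. Immediate-early genes moved with the tissue: of 15 stress genes measured, 12 were at least 1.5-fold higher in brain and 0 lower. Most heat shock genes measured did not, with ratios of 1.10 for Hspa8, 1.07 for Hsph1 and 1.17 for Dnaja1, while Dnajb1 had 1.85. The summed level of all 18 listed stress genes was 13541 CPM in the median brain cell and 3086 CPM in the median spleen cell. Of brain cells, 84.3% exceeded the 95th percentile of spleen. Of the markers of other cells, Lyz2 of myeloid cells was near 0, at 0.583 CPM in brain against 0.166 CPM in spleen. Cd8a reached 9.26 CPM in brain and 1.56 CPM in spleen.

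The promoters of 7 of the 9 genes were found in a table of RefSeq promoters (build GRCm38.p6), and those of 3 genes with opposite tissue patterns are printed here as the 250 bases before the gene's start. Havcr2 and Ctla4 were higher in brain, and Btla was lower. All 3 lie on the plus strand, Havcr2 at chr11:46454681-46454930, Ctla4 at chr1:60908775-60909024 and Btla at chr16:45224087-45224336. Capitals mark matches to the AP-1 motif TGANTCA (Havcr2, 200 bases before the start) or to the NFAT core GGAAA read on the other strand (Ctla4, 144 bases before the start).
Havcr2: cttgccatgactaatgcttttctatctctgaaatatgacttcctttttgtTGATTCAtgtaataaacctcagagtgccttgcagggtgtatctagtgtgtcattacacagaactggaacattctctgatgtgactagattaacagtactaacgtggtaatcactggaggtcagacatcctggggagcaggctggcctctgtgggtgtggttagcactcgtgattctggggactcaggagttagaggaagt
Ctla4: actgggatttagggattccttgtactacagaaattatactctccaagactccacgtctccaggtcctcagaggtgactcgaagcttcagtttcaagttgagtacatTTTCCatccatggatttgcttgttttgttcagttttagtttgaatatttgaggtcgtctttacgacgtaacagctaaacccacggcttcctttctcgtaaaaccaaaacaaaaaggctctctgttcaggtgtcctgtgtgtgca
Btla: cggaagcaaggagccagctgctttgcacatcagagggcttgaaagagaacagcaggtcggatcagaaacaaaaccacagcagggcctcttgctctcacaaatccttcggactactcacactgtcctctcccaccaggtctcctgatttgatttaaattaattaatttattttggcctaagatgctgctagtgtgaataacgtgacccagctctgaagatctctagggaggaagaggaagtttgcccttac
Both strands were searched for TGANTCA, for the core GGAAA and for the cyclic AMP element TGACGTCA, and no 2 matches overlapped in the printed windows. Among 27025 promoters of the same length, 6.87% held TGANTCA, 55.6% held GGAAA and 1.62% held TGACGTCA. Of the genes found, Havcr2 had 1 AP-1 match, Pdcd1 and Tigit had 2 NFAT core matches each, Ctla4 had 1, and Cd160, Btla and Cd200 had none of the 3 motifs. Lag3 and Tox were not looked at in this way. A match is a description of letters in this window and does not show that a factor binds.

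Over all cells, the receptors divided into those with more RNA in brain T cells and those with more RNA in spleen T cells. Lag3, Havcr2, Tigit and Ctla4 were at least 1.5-fold higher in brain, Cd160, Btla and Cd200 were at least 1.5-fold lower, and Pdcd1 and Tox passed neither limit. That is 4 of 9 genes higher and 3 of 9 lower, beside 9.78% of all 8637 genes of at least 10 CPM that were higher in brain and 8.65% that were lower. With equal weight for each clonotype the higher genes were 2, as Lag3 had a ratio of 1.22 and Havcr2, at a ratio of 11.6, was under 10 CPM. The median log2 ratio of the 9 genes was 0.16, and that of all genes was -0.10. In pooled counts, fewer cells that express a gene and less RNA per cell cannot be told apart, so shares of cells are given beside the levels, after each cell was thinned to 5000 UMIs (3496 brain and 6579 spleen cells).

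Ctla4, which competes with Cd28 for the costimulatory ligands Cd80 and Cd86, had 675 CPM (668 to 683) in brain cells and 243 CPM (239 to 247) in spleen cells, a ratio of 2.78 (2.72 to 2.83). A Ctla4 UMI was found in 56.7% (55.0 to 58.3) of brain cells and in 32.0% (30.8 to 33.1) of spleen cells, so that it was present in more cells as well as at a higher level. Pdcd1, the PD-1 receptor whose tail recruits phosphatases, had 67.2 CPM (64.8 to 69.8) in brain cells and 60.1 CPM (58.1 to 62.1) in spleen cells, a ratio of 1.12 (1.06 to 1.18). Its share of cells differed more than its level, with 17.2% of brain cells and 11.2% of spleen cells. Btla, which binds the TNF-receptor family member Tnfrsf14, ran the other way: 59.4 CPM (57.1 to 61.8) in brain against 130 CPM (127 to 133) in spleen, with 22.0% of brain cells and 39.3% of spleen cells positive.

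Over all cells, though not within the Th1-like class below, Havcr2, a receptor known from Th1 and exhausted T cells, was close to brain-restricted. It gave 532 UMIs in brain (12.9 CPM, 11.9 to 14.1) and 33 UMIs in spleen (0.546 CPM, 0.376 to 0.767), a ratio of 23.7 (16.7 to 34.8). Of thinned cells, 4.38% (3.72 to 5.11) in brain and 0.167% (0.0835 to 0.299) in spleen held a UMI. The spleen share is not above the 1.23% (0.150 to 4.39) seen in 162 spleen B cells with a median of 5459 UMIs. That control rests on 2 B cells with 10 Havcr2 UMIs (9.15 CPM in B cells), so it does not set a background level for the gene. B cells were not thinned, and the share without thinning was 6.94% of brain T cells and 0.275% of spleen T cells. Lag3, which binds MHC class II, had 20.3 CPM (19.0 to 21.8) in brain and 11.47 CPM (10.6 to 12.4) in spleen, with 6.18% and 3.33% of cells positive in brain and spleen. Tigit, which competes with Cd226 for nectin-family ligands, had 112 CPM (108 to 115) in brain and 51.6 CPM (49.8 to 53.4) in spleen, and 31.0% of brain cells and 11.2% of spleen cells held a UMI.

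Cd160, a receptor of NK, NKT and memory T cells that shares Tnfrsf14 with Btla, was found at 8.29 CPM (7.43 to 9.22) in brain cells and 39.0 CPM (37.4 to 40.6) in spleen cells, a ratio of 0.213 (0.189 to 0.238). Cd200 had 13.9 CPM in brain cells and 33.1 CPM (31.6 to 34.5) in spleen cells, a ratio of 0.419 (0.381 to 0.460). Tox, the only nuclear protein of the set, had 229 CPM (225 to 234) in brain cells and 328 CPM (323 to 332) in spleen cells, a ratio of 0.699 (0.682 to 0.716), and was found in 39.6% of brain cells and 50.02% of spleen cells. Among spleen B cells, which should lack most T cell receptors of this kind, 1.85% held Pdcd1, 1.85% Lag3, 1.23% Tigit, 2.47% Cd160, 8.64% Ctla4 and 8.64% Tox, each below the share of spleen T cells except for the overlap of intervals at Lag3. Btla (83.3%) and Cd200 (18.5%) are genes of B cells themselves and have no such control here. The brain shares have no working control: of 13 brain barcodes with myeloid genes (median 13241 UMIs), 69.2% held Ctla4, 53.8% Tigit, 30.8% Pdcd1, 30.8% Lag3 and 23.1% Havcr2, each above the share of brain T cells without thinning, with wide intervals (5.04 to 53.8 for Havcr2).

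**Figure D1:**
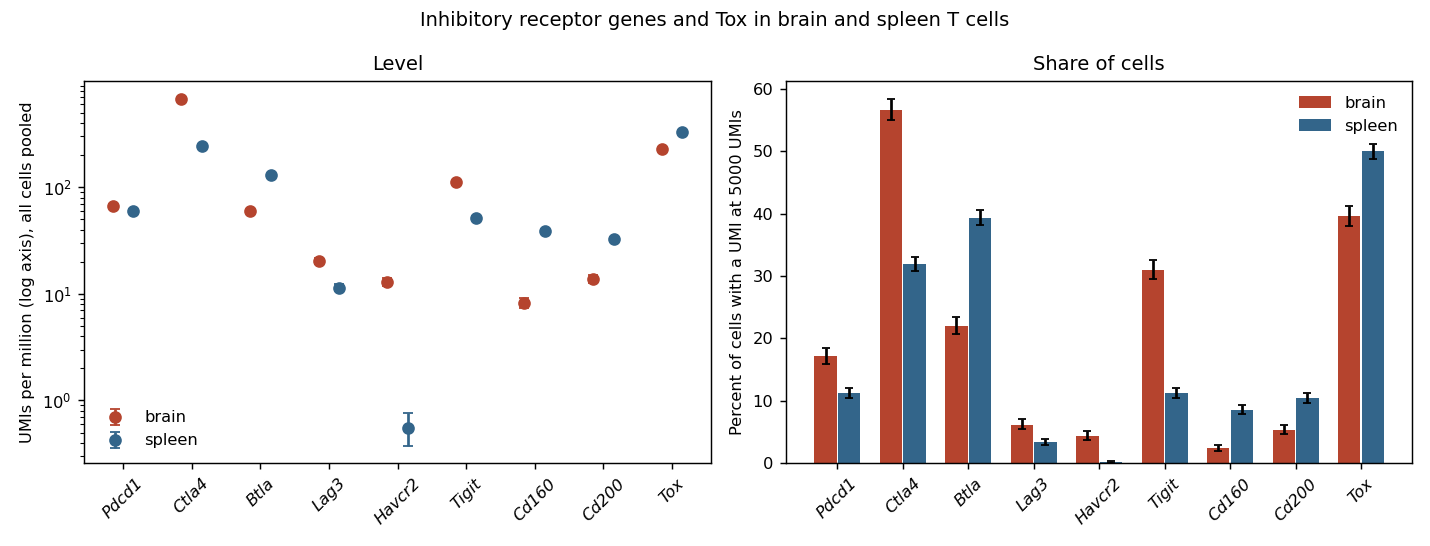
Level (left, CPM on a log axis, exact Poisson 95% intervals) and share of cells with a UMI after thinning to 5000 UMIs (right, percent, exact binomial 95% intervals) of each gene in brain (red) and spleen (blue) T cells, 1 library each. Ctla4, Tigit, Lag3 and Havcr2 sit higher in brain, and Btla, Cd160, Cd200 and Tox sit higher in spleen in both panels.

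These directions were set against the stress genes that moved with the tissue. Among the 618 brain cells and 7589 spleen cells at or below the spleen's 95th percentile of stress RNA, the ratios were 2.51 for Ctla4, 1.94 for Tigit, 1.83 for Lag3, 28.8 for Havcr2, 0.587 for Btla, 0.206 for Cd160 and 0.478 for Cd200. Tox turned round there, at a ratio of 1.36, with 437 CPM in brain and 320 CPM in spleen. Of those low-stress brain cells, 31.9% belonged to a cluster with few TCRs and low UMI numbers in which Tox stood at 1590 CPM (6.64% of low-stress spleen cells belonged to such clusters). Without these clusters the low-stress ratios were 2.06 for Ctla4, 1.84 for Tigit, 2.06 for Lag3 and 21.8 for Havcr2. They were 0.467 for Btla, 0.237 for Cd160 and 0.711 for Tox. Over all cells without these clusters the ratio of Tox was 0.664, so that Tox then passed the 1.5-fold limit as lower in brain.

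A second dependence was on 1 spleen population. The 277 spleen cells of a follicular helper-like cluster, 3.47% of spleen cells, held 43.3% of all spleen Pdcd1 UMIs, 34.03% of Tigit, 29.7% of Lag3 and 16.1% of Tox. Without them the brain to spleen ratio was 1.91 for Pdcd1, which is past the 1.5-fold limit, 2.45 for Lag3, 3.18 for Tigit and 0.808 for Tox. Only spleen cells were left out there, since no brain cluster had that name in the main clustering. A brain cluster led by Spp1 and Nrn1 (528 cells) was unnamed and stayed in. Brain clusters with these leading genes were follicular helper-like at resolutions of 1.2 (433 cells) and 0.5 (427 cells) and with another seed (481 cells). For Cd160 it was the invariant NKT cells (TRAV11-TRAJ18 receptor, 122 in brain and 662 in spleen) that mattered, and without them its ratio was 0.450.

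Brain cells held more of the 8 receptor genes at once. At 5000 UMIs per cell, brain cells had a mean of 1.45 ± 1.2001 receptor genes detected (SD over 3496 cells) and spleen cells 1.16 ± 1.15 (SD over 6579 cells). None was found in 23.3% (21.9 to 24.8) of brain cells and 32.5% (31.3 to 33.6) of spleen cells. At least 2 were found in 42.5% of brain cells and 30.5% of spleen cells, and at least 3 in 17.9% (16.6 to 19.2) of brain cells and 11.46% (10.7 to 12.3) of spleen cells. No cell of either tissue held all 8, and the highest number was 7. Without thinning, at least 2 were detected in 58.9% of brain cells and 40.2% of spleen cells. Because detection falls with depth, these are numbers of genes seen and not of proteins on the cell.

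Means differed more between cell states than between the tissues as a whole. Spleen follicular helper-like cells had the highest mean, 3.95 ± 1.15 receptor genes (SD over 191 cells), and 90.6% of them held at least 3. Brain cells of a cytotoxic-like cluster led by Eomes, Gzmk, Cd8b1 and Cd8a followed with 2.48 ± 1.37 (94 cells). Whether this cluster held CD8 T cells was not tested. Without it the brain to spleen ratios over all cells were 1.99 for Tigit and 1.67 for Lag3, against 2.16 and 1.77 with it. Regulatory-like cells had 2.03 in brain and 1.91 in spleen, Th17-like cells 1.66 in brain and 0.898 in spleen. Th1-like cells differed little, with 0.982 in brain and 0.953 in spleen, and naive or central memory-like cells held few, with 0.738 in brain and 0.434 in spleen. NKT-like cells went against the tissue pattern in this mean, with 0.645 in brain and 1.16 in spleen. Their genes did not all do so. By brain to spleen ratio of levels, Cd160 (0.273) and Pdcd1 (0.586) were lower in brain NKT-like cells, and Ctla4 (1.78) and Tigit (4.13) were higher. The share of cells with a Tox UMI grew with the number of receptors in both tissues. In brain it was 30.9% at 0 receptors, 41.7% at 2 and 62.6% at 4, and in spleen 38.2%, 56.0% and 88.7% at the same numbers. States mix in these shares: of spleen follicular helper-like cells, which had the most receptors, 97.9% held a Tox UMI. The trend was not tested within states.

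**Figure D2:**
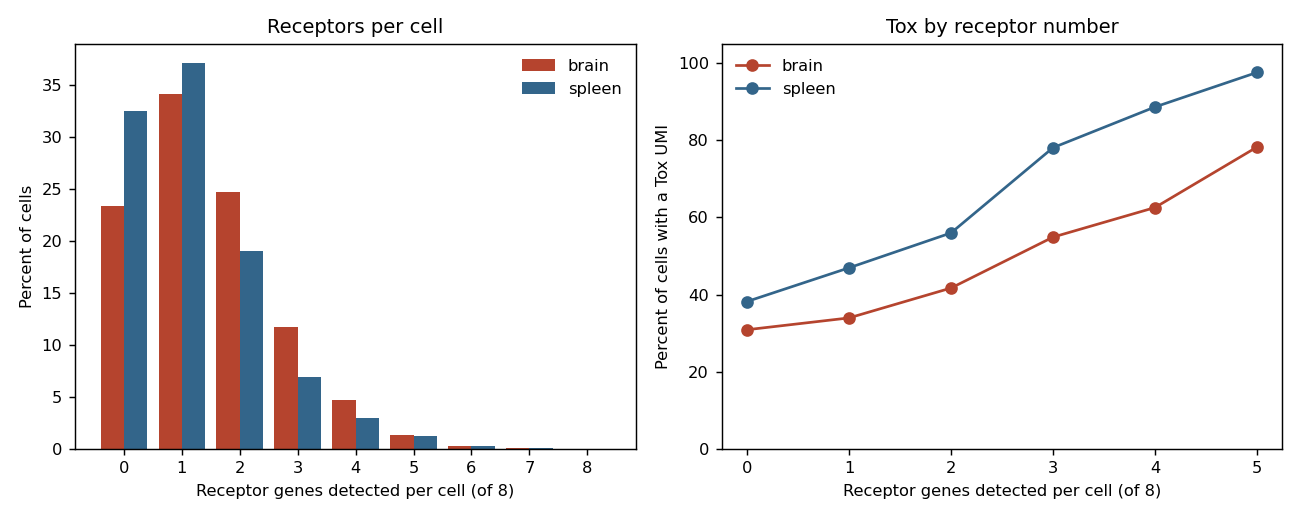
Left, percent of cells by the number of the 8 receptor genes detected at 5000 UMIs in brain (red) and spleen (blue). Right, percent of the cells of each number that held a Tox UMI, for numbers with at least 20 cells. Brain has fewer cells with 0 or 1 receptor and more with 2 to 4, while at each number Tox is found in a larger share of spleen cells.

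Most pairs of genes were found in the same cell more often than their single shares give. An odds ratio was computed for each pair of genes found in at least 50 thinned cells, as the odds of one gene in cells with the other over the odds in cells without it. It exceeded 1.5 in 21 of 36 pairs in brain and 18 of 28 pairs in spleen, where Havcr2 was too rare to pair. Cells of different states mix in these values, and no p-value is given. In brain the highest odds ratio was that of Lag3 with Ctla4 (9.22): 91.7% of Lag3+ cells held Ctla4. Lag3 with Pdcd1 followed at 6.41, since 52.8% of Lag3+ brain cells held Pdcd1. Havcr2 was found with Ctla4 (5.07), Lag3 (4.96), Pdcd1 (4.22) and Tigit (3.67), while with Btla its odds ratio was 0.40 and with Tox 0.80. Thus 86.3% of Havcr2+ brain cells held Ctla4 and 60.8% held Tigit, but 10.46% held Btla.

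In spleen the core of Pdcd1, Lag3, Tigit and Ctla4 had high odds ratios too. Pdcd1 with Lag3 reached 9.64, Pdcd1 with Tigit 9.11, Lag3 with Ctla4 7.95 and Lag3 with Tox 7.82, and 88.1% of Lag3+ spleen cells held Tox. Without the follicular helper-like cluster, 17 of 28 spleen pairs exceeded 1.5. Inside brain Th17-like cells the pairs had like values: Pdcd1 with Lag3 stood at 7.18 and Pdcd1 with Havcr2 at 4.996 among 665 cells, while Pdcd1 with Btla was at 0.26. Of those Th17-like cells with Pdcd1, 31.8% held Lag3, against 6.09% of those without it. This class pools clusters 3 and 5, which differed in Pdcd1, Lag3, Havcr2 and Btla, as given below. Pairs within each cluster were not tested.

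**Figure D3:**
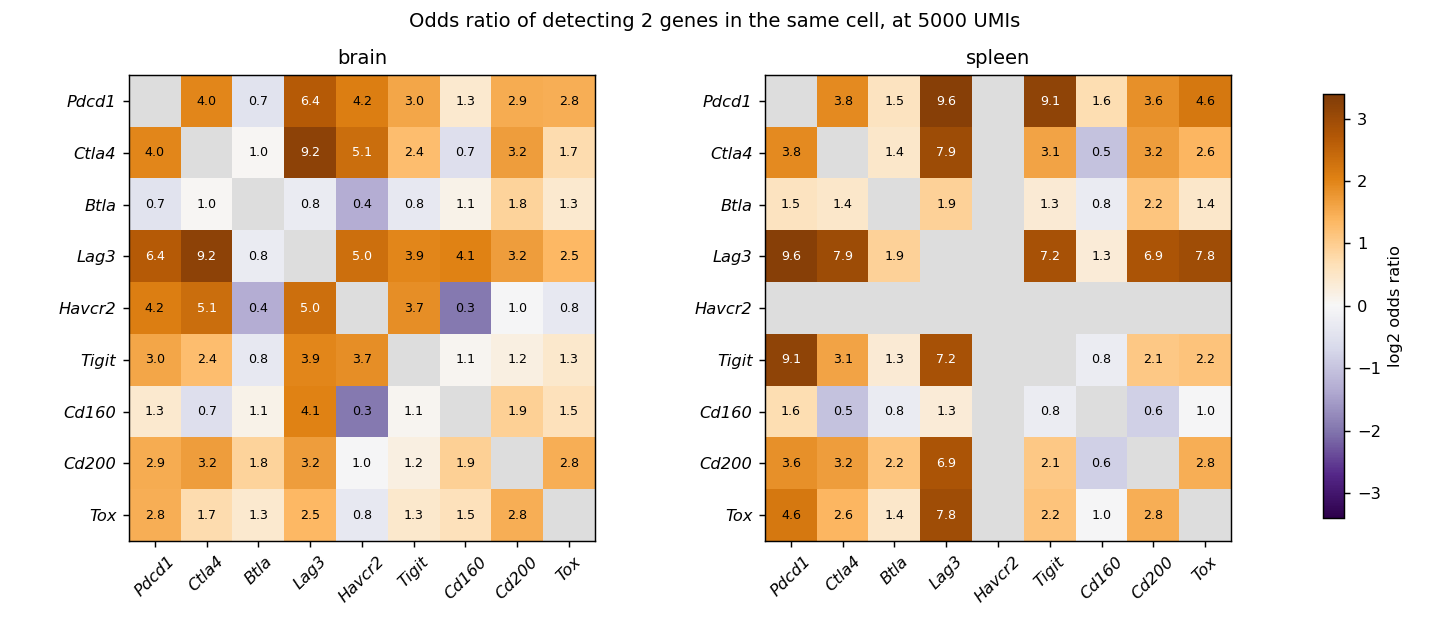
Odds ratio of detecting each pair of genes in the same cell at 5000 UMIs, in brain (left) and spleen (right). Colour is the log2 odds ratio, printed numbers are odds ratios, and grey cells are the diagonal and spleen Havcr2 (11 positive cells). Lag3, Pdcd1, Ctla4 and Tigit pair above 2 in both tissues, and brain Havcr2 pairs with these 4 genes but not with Btla.

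Clusters were made in each library on its own without using the 9 genes. They were named from marker lists, and a cluster that met no rule stayed unnamed and goes by its number and leading genes. Ctla4 was highest in regulatory-like cells, at 2344 CPM (2276 to 2413) in brain and 1004 CPM (980 to 1030) in spleen. Lag3, Pdcd1 and Havcr2 in brain were concentrated in a few clusters. An unnamed cluster 2 of 281 cells, led by the chemokine genes Ccl4 and Ccl3 with Klrc1 and Rgs16, held 39.8% of all brain Havcr2 UMIs. It had Havcr2 at 70.6 CPM (61.4 to 80.8), Lag3 at 71.6 CPM, Pdcd1 at 193 CPM and Tigit at 242 CPM, and little Btla (16.0 CPM). A Th17-like cluster 3 of 405 cells, led by Il17a, Ccl1 and Nrgn, had Lag3 at 62.1 CPM (55.8 to 69.0), Havcr2 at 27.1 CPM, Pdcd1 at 107 CPM and Ctla4 at 1381 CPM, and held 41.6% of brain Lag3 UMIs.

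The other brain Th17-like cluster differed in nearly every receptor. Cluster 5, with 279 cells led by Ccr6 and Il22, had Lag3 at 0 UMIs, Havcr2 at 3.51 CPM, Pdcd1 at 4.97 CPM, Tigit at 64.0 CPM and Ctla4 at 419 CPM. Its Btla stood at 70.5 CPM (61.9 to 80.0), against 41.2 CPM (36.1 to 46.9) in cluster 3. An unnamed brain cluster 9 of 528 cells led by Spp1, Nrn1 and Slamf6 combined Pdcd1 (125 CPM) and Tox (375 CPM) with the highest Cd200 of the brain (49.8 CPM) and with Btla at 97.1 CPM, but with Havcr2 at 1.19 CPM. The brain cytotoxic-like cluster (103 cells) had Pdcd1 at 193 CPM, Lag3 at 75.7 CPM (58.7 to 96.2), which overlaps the interval of cluster 2, and Tox at 695 CPM. Its Tigit, 506 CPM (461 to 555), had an interval just below that of spleen follicular helper-like cells (593 CPM, 558 to 630). Brain naive or central memory-like cells had 0 UMIs of Havcr2, Lag3 at 0.860 CPM and Pdcd1 at 2.29 CPM.

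Spleen follicular helper-like cells had the highest Pdcd1 (878 CPM, 835 to 922), Lag3 (115 CPM, 100.3 to 132) and Tigit of any cluster in either tissue. Their Tox, at 1780 CPM (1719 to 1843), overlapped in its interval with the 1907 CPM (1840 to 1975) of a spleen cluster with few TCRs. Cd200 was instead highest in an unnamed spleen cluster 12 of 513 cells led by Nrn1, Gpm6b and Cacna1d, at 170 CPM (157 to 183), which also had Pdcd1 at 164 CPM and Lag3 at 59.7 CPM. The few-TCR clusters (299 brain and 512 spleen cells) are led by genes such as Hdac9 and Lncpint and hold fewer UMIs (brain median 3367, spleen medians 2611 and 2584). They were therefore kept out of the comparisons of named classes in the main clustering. In the other clusterings, low-UMI clusters were not kept out in this way. Cd160 belonged to NKT-like cells, which had 98.3 CPM (83.3 to 115) in brain and 360 CPM (343 to 376) in spleen and held 44.6% of brain and 79.1% of spleen Cd160 UMIs. Of the 33 spleen Havcr2 UMIs, 66.7% lay in the Th1-like cluster, at 5.36 CPM. Brain Th1-like cells had less, with 15 Havcr2 UMIs (2.09 CPM) and a brain to spleen ratio of 0.389 (0.188 to 0.784). Both levels are under 10 CPM. Cells with a UMI of both Il17a and Ifng (104 brain cells) had Havcr2 at 48.1 CPM (38.4 to 59.6), against 12.7 CPM (9.09 to 17.3) in cells with Il17a and no Ifng UMI and 17.6 CPM (15.8 to 19.7) in cells with Ifng and no Il17a UMI. Lag3 did not follow that order, with 39.5 CPM, 49.95 CPM and 24.6 CPM in the same 3 groups of cells.

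**Figure D4:**
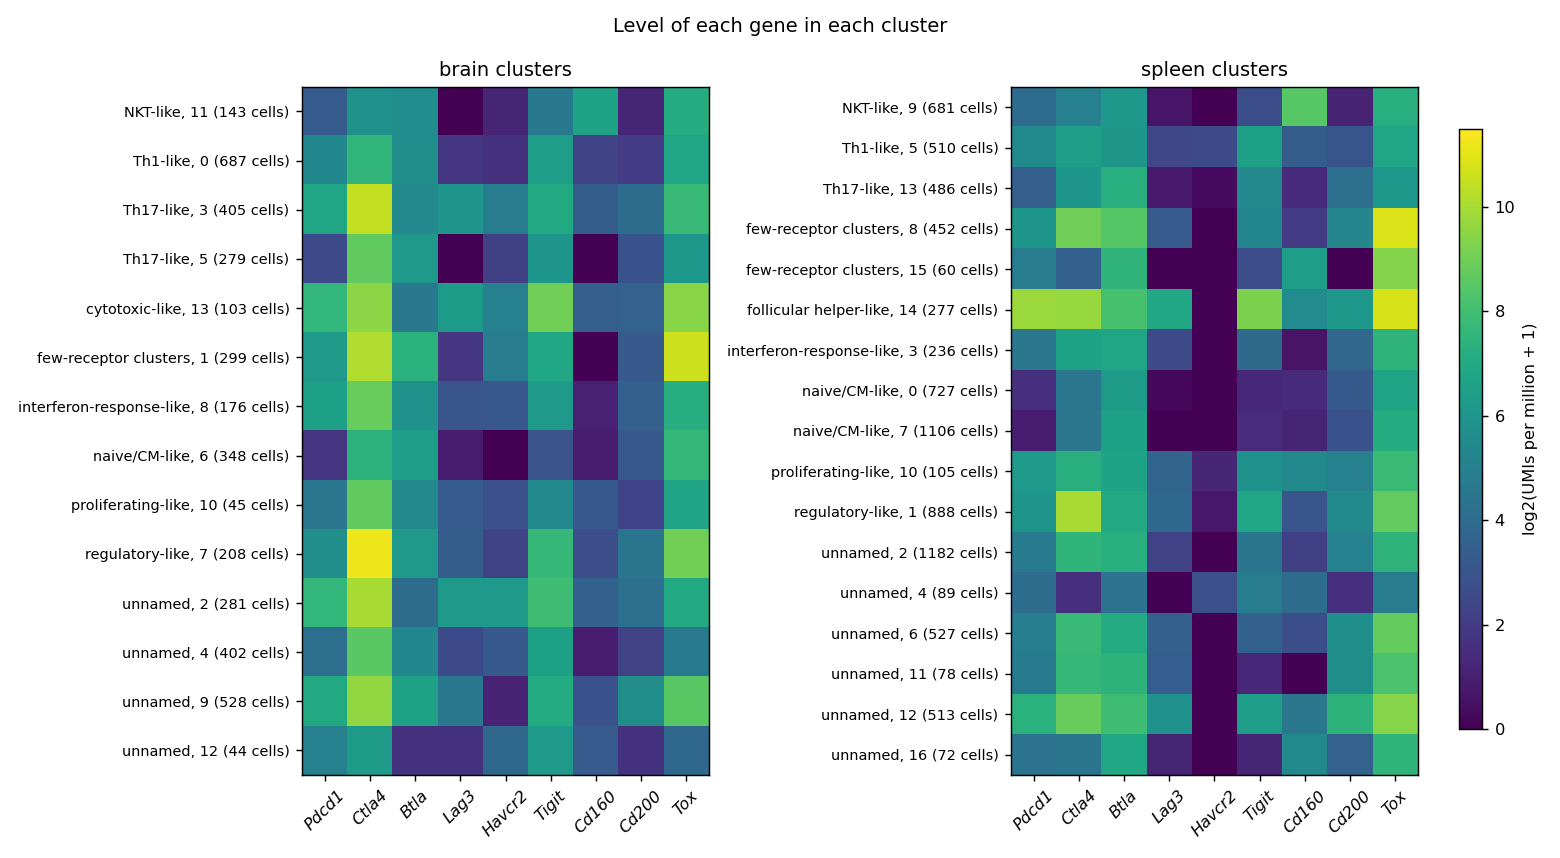
Level of each gene, as log2(CPM + 1), in each brain cluster (left) and each spleen cluster (right), with cluster number and cell number beside the name. Spleen follicular helper-like cells are bright for Pdcd1, Lag3, Tigit and Tox, and Havcr2 is visible in brain clusters 2 and 3 but in almost no spleen cluster.

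Within 6 classes named in both tissues in the main clustering, Ctla4 was higher in brain in each. In each of the 3 other clusterings, 1 of the classes compared did not pass as higher. Its ratio of brain to spleen was 2.26 in Th1-like cells, 15.5 (13.6 to 17.6) in Th17-like cells, 2.33 in regulatory-like cells, 7.57 in naive or central memory-like cells, 4.52 in interferon-response-like cells and 1.78 in NKT-like cells. The sizes moved with the clustering: on the log2 scale Ctla4 stood at 2.92 in naive or central memory-like cells and 0.83 in NKT-like cells here, against 1.23 and 2.91 at a resolution of 1.2, and at 2.18 in interferon-response-like cells here, against 1.49 at a resolution of 0.5. At a resolution of 1.2 the NKT-like class took in low-UMI clusters. These were 177 brain cells (median 3479 UMIs) and 62 spleen cells (median 2584 UMIs), so its values there are of partly different cells. Tigit was higher in brain in 4 of the 5 classes in which it reached 10 CPM, the exception being Th1-like cells (0.904, 0.793 to 1.03). Btla was lower in 3 of 6, Cd160 lower in its 1 measured class, the NKT-like cells, and Tox higher in 2 of 6, Th17-like and naive or central memory-like cells. In the naive or central memory-like class the log2 ratio of Tox was 0.69, and it missed the limit at a resolution of 1.2 (0.15) and with another seed (0.56). The classes were rebuilt separately in each library, so a class may not hold the same cells in both tissues. Brain Th1-like cells are led by Zfp683 and Il12rb2 and those of spleen by Ifitm2 and Ifitm1, and the Th1-like comparison was lost with all 3 other clusterings, since no spleen cluster was Th1-like with another seed or at a resolution of 0.5, and no brain cluster at 1.2.

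Th17-like cells differed most between the tissues: 6 of 8 measured genes were higher in brain and 1 lower, beside 11.1% of 8622 genes higher and 14.4% lower. Pdcd1 had 68.3 CPM in brain and 10.1 CPM in spleen, with a ratio of 6.78 (4.88 to 9.67). Lag3 had 348 UMIs in brain (38.6 CPM) and 3 in spleen (0.795 CPM), with a ratio of 48.5 (16.5 to 236). Tox had 159 CPM in brain and 69.2 CPM in spleen, with a ratio of 2.303 (2.02 to 2.64), and Btla 52.3 CPM in brain and 145 CPM in spleen, with a ratio of 0.361. Because brain cluster 5 had Lag3 at 0 UMIs and Pdcd1 at 4.97 CPM, nearly all class UMIs of both genes came from cluster 3. With the other 3 clusterings the log2 ratio of Pdcd1 lay between 1.43 and 2.42, against 2.76 here, and Tox had a log2 ratio of 0.40 at a resolution of 0.5, under the 1.5-fold limit. Lag3 had a log2 ratio of 3.995 at a resolution of 0.5, against 5.60 here, and Btla -0.81 at a resolution of 1.2, against -1.47 here. Spleen Th17-like cells, led by Ccr6 like brain cluster 5, held an Il17a UMI rarely, as only 11 spleen cells of any class did.

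The other classes gave smaller counts. In Th1-like cells 1 of 5 genes was higher and 0 lower (all genes 10.2% and 12.1%), and Pdcd1 had 39.9 CPM in brain and 42.7 CPM in spleen. In NKT-like cells 2 of 6 were higher and 2 lower (7.31% and 18.3%), with Tigit at 23.9 CPM in brain, against 5.79 CPM in spleen. The lower count there includes Pdcd1 at 0.586, whose interval (0.307 to 1.04) holds 1. In interferon-response-like cells 3 of 6 were higher and 1 lower (17.8% and 15.3%), with Pdcd1 at 87.7 CPM in brain, against 22.9 CPM in spleen. In naive or central memory-like cells 2 of 3 were higher and 0 lower (8.9% and 6.25%), and in regulatory-like cells 2 of 7 were higher and 2 lower (9.36% and 9.4%).

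The genes most like each member over 29 clusters (12 of brain and 17 of spleen, each with at least 50 cells) were found by Pearson's r of log2(CPM + 10) over 9989 genes. Pdcd1 and Lag3 were each other's closest gene, at r = 0.88. The next for Pdcd1 were Eea1 (0.87) and Endod1 (0.83), and for Lag3 Rgs16 (0.87) and Penk (0.85). Havcr2 was most like Vipr2 (0.90), Gldc (0.89) and Adgrg1 (0.88), and Ctla4 most like Trib1 (0.91), Dusp4 (0.87) and Mir155hg (0.82). Cd160 was most like Etv5 (0.88), Il4 (0.88) and Klrb1c (0.86), Tigit like Plod2 (0.86), Btla like Aff3 (0.86), Cd200 like Synpo (0.87) and Tox like Camk2d (0.86). Havcr2 and Btla ran apart, at r = -0.61. Clusters of 1 library share its depth and stress level, and these values are descriptions.

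Clonal expansion was read from cells with a paired TCR. In brain, 725 cells of 64 clonotypes with at least 5 cells were set against 1840 cells whose clonotype had 1 cell. Expanded brain cells had more Havcr2 (23.0 CPM, against 3.72 CPM in single-cell clonotypes, a ratio of 6.20, 4.69 to 8.26), more Lag3 (39.9 CPM against 9.93 CPM, a ratio of 4.02, 3.34 to 4.83), more Pdcd1 (92.1 CPM against 49.4 CPM, 1.87) and more Tigit (142 CPM against 89.6 CPM, 1.58). They had less Btla (39.8 CPM against 66.0 CPM, 0.602) and less Tox (140 CPM against 224 CPM, 0.626, 0.585 to 0.669). The pooled levels of Pdcd1, Lag3 and Havcr2 came from a minority of clonotypes. Of 64 expanded clonotypes, 26 lay above the pooled level of single-cell clonotypes for Pdcd1, 22 for Lag3 and 28 for Havcr2, while 41 did for Tigit. The median expanded clonotype had 21.4 CPM for Pdcd1 and 0 for Lag3 and Havcr2. The median single-cell clonotype, which is 1 cell, had 0 CPM for Pdcd1, Lag3 and Havcr2. Ctla4, Cd200 and Cd160 passed neither limit. That is 4 of 9 higher and 2 lower, beside 5.28% of 8412 genes higher and 3.46% lower. Single-cell clonotypes held more cells with a Foxp3 UMI (8.86%, against 0.34% of cells in clonotypes of 5 to 9 cells and 0.23% in larger ones). Among cells with no Foxp3 UMI, no invariant NKT receptor and no naive or central memory-like state, Havcr2 (4.77) and Lag3 (3.16) had a ratio above 1.5, while Pdcd1 was at 1.43 and Tigit at 1.39.

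In spleen, 213 cells of 23 expanded clonotypes were set against 5985 cells of single-cell clonotypes. Tigit had 287 CPM in expanded cells against 35.2 CPM in single-cell clonotypes (8.16, 7.33 to 9.07), Pdcd1 315 CPM against 42.4 CPM (7.43, 6.71 to 8.21), Lag3 52.8 CPM against 8.82 CPM (5.99, 4.66 to 7.62), Tox 495 CPM against 262 CPM (1.89, 1.75 to 2.03) and Cd200 53.5 CPM against 30.9 CPM (1.73, 1.37 to 2.17). The median expanded clonotype lay below the pooled level of single-cell clonotypes for Tox (192 CPM), Cd200 (24.0 CPM) and Lag3 (4.89 CPM). It lay above that pooled level for Pdcd1 (177 CPM) and Tigit (212 CPM). The median single-cell clonotype, which is 1 cell, was lower than the median expanded clonotype for each of these genes. It had 130 CPM for Tox and 0 CPM for Cd200, Lag3, Pdcd1 and Tigit. By the pooled levels, 5 of 8 genes of at least 10 CPM were higher and 0 lower, beside 14.5% of 8785 genes higher and 6.69% lower. The follicular helper-like cells decided part of this. Without them (167 expanded cells), Tigit (6.66), Pdcd1 (2.79) and Lag3 (1.71) were still higher in expanded cells, while Cd200 was at 1.37 and Tox turned round to 0.830. With at least 10 cells per clonotype, which leaves 85 cells of 3 clonotypes, Cd200 (0.385) and Tox (0.962) turned round.

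Expanded clonotypes were far from alike. Of the 10 largest brain clonotypes, the 1st, 2nd, 4th and 7th (23 to 67 cells, TRBV13-3 or TRBV26, mostly Th1-like) had Lag3 between 0 and 4.41 CPM, Pdcd1 between 3.80 and 13.2 CPM and Ctla4 between 22.1 and 118 CPM. The 3rd, 5th and 8th (19 to 48 cells, TRBV20) had Lag3 between 112 and 255 CPM, Pdcd1 between 314 and 499 CPM and Ctla4 between 1786 and 2096 CPM. These clonotypes were picked with their values known. The 6th, 9th and 10th lay between the 2 sets in Ctla4 (961, 1152 and 861 CPM) and in Lag3 (19.5, 9.85 and 33.1 CPM), while Pdcd1 stood at 43.0 and 19.7 CPM in the 6th and 9th and at 4.73 CPM, within the low set, in the 10th. Over all 64 expanded brain clonotypes, Havcr2 was at 0 in 36 and Lag3 at 0 in 40. In spleen, the largest clonotype (60 cells, TRBV26 with TRAV7-5) had Pdcd1 at 36.7 CPM and Tox at 41.6 CPM. The 3rd (10 cells) and the 5th (9 cells), mainly follicular helper-like, had Pdcd1 at 1054 and 1476 CPM and Tox at 1641 and 1764 CPM.

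**Figure D5:**
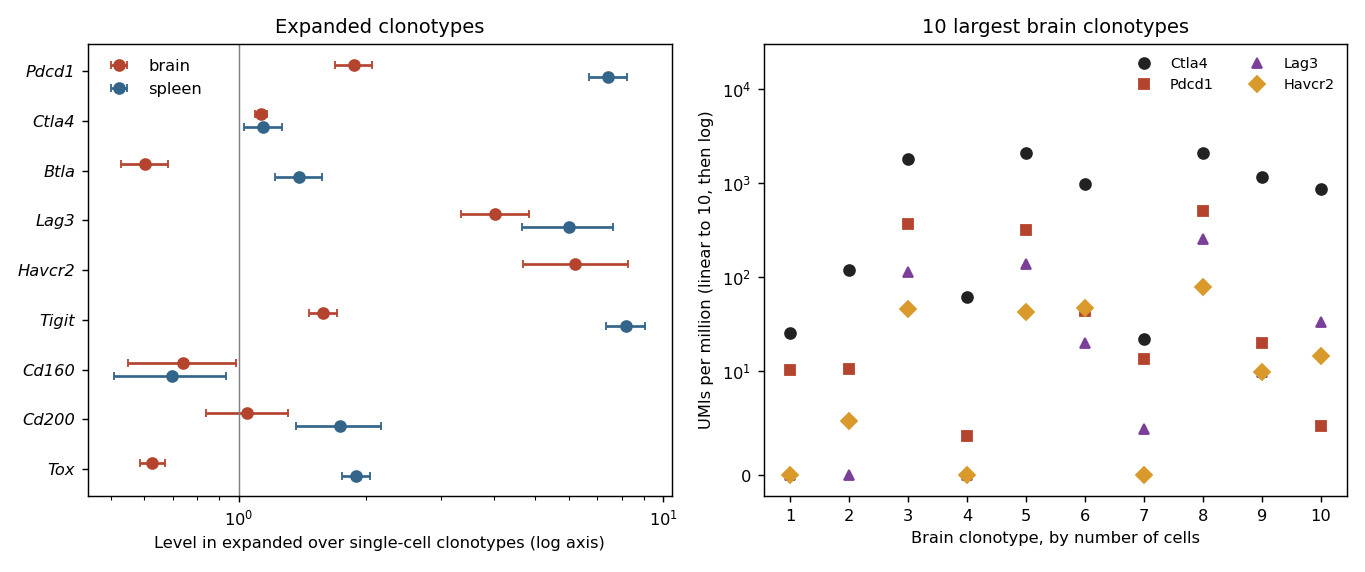
Left, ratio of each gene in expanded clonotypes (at least 5 cells) over single-cell clonotypes (log axis, exact 95% intervals for counting error) in brain (red) and spleen (blue); spleen Havcr2 is under 10 CPM and not drawn. Right, level of 4 genes in the 10 largest brain clonotypes (scale linear to 10, then log). Tox and Btla lie left of 1 in brain and right of 1 in spleen, and clonotypes 3, 5 and 8 stand above clonotypes 1, 2, 4 and 7 for Ctla4, Pdcd1 and Lag3, with clonotypes 6, 9 and 10 between them for Ctla4 and Lag3.

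Clonotypes found in both tissues hold the receptor constant. In 17 clonotypes that had 3 or more cells on both sides (170 brain and 149 spleen cells), Ctla4 was higher in the brain cells in 17 of 17, with a median of 370 CPM in brain and 40.1 CPM in spleen. Its pooled level differed less: the brain cells held 324 CPM and the spleen cells 134 CPM (ratio 2.42, 2.02 to 2.91). With at least 2 cells in each tissue, Ctla4 was higher in the brain cells in 32 of 36 clonotypes. Pdcd1 was higher in the brain cells in 11 clonotypes and lower in 5, although its pooled level was 40.4 CPM in brain and 59.0 CPM in spleen (ratio 0.685, 0.487 to 0.966). Tigit was higher in 11 and lower in 6, with 136 CPM in brain and 170 CPM in spleen pooled, so neither gene kept 1 direction on both measures. Btla was higher in 8 and lower in 9, with 49.5 CPM in brain and 95.2 CPM in spleen pooled. Havcr2 gave 17 UMIs in the brain cells and 4 in the spleen cells, and 9 of 17 clonotypes had none in either.

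The wider pathway moved in part, and its counts stand beside 9.78% of all genes higher in brain, 8.65% lower and a median log2 ratio of -0.10. Of 14 ligand genes, 9 reached 10 CPM, 4 were higher in brain and 1 lower, with a median log2 ratio of 0.43. Cd86, a ligand of Ctla4 and Cd28, had 25.9 CPM in brain and 11.2 CPM in spleen, and Lgals3, which encodes a galectin that binds Lag3, had 90.4 CPM in brain and 40.3 CPM in spleen. Tnfrsf14, the ligand of Btla and Cd160, had 8.22 CPM in brain and 12.6 CPM in spleen, and Lgals9, a reported ligand of TIM-3, 171 CPM in brain and 178 CPM in spleen. Of 7 partner receptors that share these ligands, 5 were measured and 2 were higher, Icos (495 CPM in brain, 181 CPM in spleen) and the costimulatory Cd28 (461 CPM in brain, 298 CPM in spleen), while Cd96 and Tnfsf14 stood at ratios of 0.933 and 0.968. Of 16 other inhibitory receptor genes, 12 were measured, 4 were higher and 1 lower. Lilrb4a had 92.8 CPM in brain and 7.45 CPM in spleen, Entpd1, which encodes the ectonucleotidase CD39, 34.6 CPM in brain and 20.7 CPM in spleen, and Cd72 8.61 CPM in brain and 18.6 CPM in spleen. Cd5 stood at a ratio of 0.818.

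Of the signalling genes under the receptors, 2 of 17 were higher and 4 lower, with a median log2 ratio of -0.16 that lies close to the -0.10 of all genes. The ubiquitin ligase gene Cblb had 436 CPM in brain and 222 CPM in spleen, and the lipid phosphatase gene Inpp5d 210 CPM in brain and 133 CPM in spleen. Dgka, a diacylglycerol kinase that limits TCR signals, had 242 CPM in brain and 463 CPM in spleen, and Ptpn6, the phosphatase SHP-1, 88.4 CPM in brain and 148 CPM in spleen. Among TOX-family and exhaustion-linked regulators, 20 of 21 were measured, 9 were higher and 5 lower, with a median log2 ratio of 0.47. Nr4a2 had 164 CPM in brain and 9.07 CPM in spleen and Nr4a3 207 CPM in brain and 11.502 CPM in spleen. Both are immediate-early genes as well, and their part in the stress pattern of the brain library was not tested. Tox2, the relative of Tox known from follicular helper cells, had 9.75 CPM in brain and 23.7 CPM in spleen, and Id3 12.3 CPM in brain and 47.9 CPM in spleen.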

How the data were processed

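The authors deposited raw UMI counts per gene and barcode (filtered matrices, Cell Ranger 9.0.0 per the submitters' processing notes) and TCR contig tables. Builds are named there without a role, so coordinates are those of RefSeq. Barcodes with at least 500 genes, 1000 UMIs and at most 10% mitochondrial UMIs were kept. Those with over 1 productive TRB or 2 TRA chains were left out as doublets, which misses doublets with 1 recovered receptor, as were 16 brain and 170 spleen barcodes with B cell or myeloid genes. Scanpy 1.11.5 clustered each library (2000 variable genes, 30 components, Leiden resolution 0.8). The thresholds that name clusters were set after marker values were seen. Clonotypes share V genes and CDR3 nucleotides of both chains.

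Counts were summed and scaled to CPM. Ratios have exact conditional binomial, levels exact Poisson and shares Clopper-Pearson 95% intervals. The call at 1.5-fold needed 10 CPM in the higher group and was tested on simulated data. Pathway genes named have the 2 highest and 2 lowest ratios of each list. Other genes, clusters, gates and clonotypes were named with their values known. The members and lists were chosen with earlier results of these data known. Alternatives were TMM (edgeR 4.0.16) and median-of-ratios scaling, other cell filters, thinning depths, clusterings and clonotype definitions.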

Additional observations from a re-analysis of the deposited data

Results flagged for a closer look

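In pooled levels, Tox differed in direction between the tissues in the same contrast. In expanded against single-cell clonotypes it had a ratio of 0.626 in brain and 1.89 in spleen, and the spleen value was 0.830 without follicular helper-like cells. The median expanded clonotype was below the pooled level of single-cell clonotypes in both tissues. It had 46.0 CPM against 224 CPM in brain and 192 CPM against 262 CPM in spleen. The median single-cell clonotype, which is 1 cell, had 101 CPM in brain and 130 CPM in spleen. By medians on both sides, expanded clonotypes were thus lower in brain and higher in spleen. With 1 library per tissue the difference in pooled ratios was not tested.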

How the results depend on the processing

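The 4 genes higher and 3 lower in brain were the same in number under TMM and median-of-ratios scaling (shifts of 0.05 and 0.06 log2) and under most cell filters. The exceptions were 5 higher without follicular helper-like cells, named in spleen only (Pdcd1), and 4 lower without few-receptor clusters (Tox). Another was 2 higher with equal weight per clonotype, where Lag3 was at 1.22 and Havcr2 under 10 CPM. Cells with at least 2 receptors were 22.2% in brain and 15.9% in spleen at 2000 UMIs, 58.9% and 40.2% without thinning, 40.7% and 26.3% without Foxp3+ cells, 36.7% in brain for low-stress cells, and 28.5% in spleen without follicular helper-like cells. Calls lower in brain over the named classes moved most with the clustering: 6 in all, against 18 at resolution 1.2 (7 classes), 14 at resolution 0.5 and 16 with another seed. At resolution 1.2 Pdcd1 in NKT-like cells turned round, to a log2 ratio of 0.76, but the class there took in low-UMI clusters of both tissues. Ctla4 was higher in 6 of 6 classes, in 6 of 7 at resolution 1.2, and in 5 of 6 at resolution 0.5 and with another seed. The classes compared were not the same, since follicular helper-like cells were named in both tissues only in the alternatives. For expanded brain cells, effector cells alone gave 2 genes higher and 1 lower, and a minimum of 3 cells gave 1 lower. For expanded spleen cells, a minimum of 10 cells gave 3 higher and 4 lower, a minimum of 3 cells gave 1 lower, and leaving out follicular helper-like cells gave 3 higher and 1 lower. The log2 ratio of Tox there was -0.27 without follicular helper-like cells and -0.056 at 10 cells, where Cd200 was at -1.38. The cause was not tested. Alternatives that leave out few-receptor clusters, follicular helper-like or cytotoxic-like cells or keep effector cells, the settings for gene pairs, and leaving out the largest shared clonotype were chosen after seeing the data. No paired analysis was possible because each tissue has 1 library. Variation between animals and protein levels cannot be read from these data. A UMI share misses RNA at low depth and can hold background UMIs.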

Other observations

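Receptor number followed clone size differently in the 2 tissues. In brain the mean number of receptor genes per thinned cell was 1.32 in single-cell clonotypes, 1.47 in clonotypes of 2 to 4 cells, 1.55 at 5 to 9 cells and 1.64 at 10 cells or more. In spleen it was 1.08, 1.78, 2.43 and 1.53 over the same sizes, and the last value rests on 3 clonotypes (74 thinned cells). The share of brain cells with no receptor gene detected did not fall throughout, at 26.1%, 21.4%, 19.1% and 25.4% over these sizes. Havcr2 in brain was already at 17.03 CPM in clonotypes of 2 to 4 cells, against 3.72 CPM in single-cell clonotypes, and stood at 25.3 CPM at 5 to 9 cells and 21.4 CPM at 10 or more.

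Cells with a Cxcr5 UMI, the chemokine receptor of B cell follicles, were present in brain too (164 cells). They had Pdcd1 at 133 CPM, Tigit at 252 CPM, Tox at 639 CPM and Btla at 127 CPM, but Havcr2 at 1.70 CPM (0.351 to 4.98). The 1013 spleen cells with a Cxcr5 UMI had Pdcd1 at 205 CPM, Tigit at 157 CPM, Tox at 671 CPM and Btla at 187 CPM. Brain cells with a UMI of Csf2, which encodes GM-CSF, had Havcr2 at 33.4 CPM (28.4 to 38.9, 343 cells), and spleen cells with a Csf2 UMI had 3 Havcr2 UMIs in 129 cells. Lag3 and Cd160 shared brain cells: 20.2% (12.3 to 30.4) of the 84 Cd160+ thinned brain cells held Lag3, against 5.83% of the others.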
